A study of Mus musculus with 9 samples.

Results

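The 37 genes described here are interferon-responsive and antigen-processing genes, chosen by symbol from a fixed list, out of 18061 genes in the deposited table. All 37 were found in it. The list was drawn up with earlier results of these data known. RNA was sequenced from primary astrocytes cultured from the cortex of wild-type C57BL/6 mouse pups at P1. The 9 libraries form 3 groups of 3. In the Aβ plus acetate group, cells received Aβ oligomers at 1 µM for 5 days from day 8 in vitro (DIV8) and sodium acetate at 10 mM for the last 1 day. In the acetate group, cells received 10 mM acetate for 1 day, and in the control group neither agent. All 3 groups, controls included, spent that last day in medium without glucose, from DIV11 to harvest at DIV12, so no group kept its glucose, and Aβ without acetate was not analysed here. The labels number the replicates as biological but do not say whether they came from separate litters or culture days; p-values measure the spread between these libraries, which may be partly technical.

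The names of the libraries fall into 2 styles, called here set 2 (Aβ plus acetate 2 and 3, acetate 2 and 3, and control 3; 5 libraries) and set 1 (Aβ plus acetate 1, acetate 1, and controls 1 and 2; 4 libraries). The labels do not say whether the sets are different cultures, preparations or sequencing runs, and these cannot be told apart. The first principal component of all genes held 89.7% of the variance and separated the sets, and Spearman correlations between libraries were 0.992 to 0.997 within a set and 0.905 to 0.935 across sets. The smallest steps of the deposited values imply 22155264 to 57028800 counted reads per library. Astrocyte markers were high in every library: the 10 markers, which include Gfap and Aqp4, summed to 10473 to 12492 counts per 1000000 counted reads (CPM) in set 2 and 7504 to 8994 CPM in set 1, with Gjb6 the only one below 1 CPM throughout.

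Interferons are secreted when a cell detects viral nucleic acid. Type I interferon binds a receptor whose kinases phosphorylate STAT2, which joins IRF9 in a complex that binds interferon-stimulated response elements in the promoters of antiviral genes; interferon gamma acts at a different element, the gamma-activated site. The induced genes include more of the sensors and transcription factors themselves, effectors that block virus entry, translation or release, the ubiquitin-like protein ISG15 and its enzymes, membrane-attacking GTPases, and the immunoproteasome and peptide transporter that supply MHC class I. Astrocytes respond to interferons, and reactive states with high levels of these genes are known in infected, injured and ageing brain.

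Set 2 libraries carried more RNA of most of these genes than set 1 libraries, whatever the treatment. Of the 37 members, 28 (75.7%) were higher in set 2 and 2 (5.41%) were lower in limma's test of log2(CPM + 1), with the treatment group in the fit and Benjamini-Hochberg adjusted p under 0.05. The sets differed widely in other genes as well: of the 14058 genes tested, 70.6% were called, 38.4% higher and 32.3% lower. The members' median log2 difference was 0.86, against 0.050 for all genes tested. Members were chosen with earlier results of these data known, so their excess over all genes tested is not that of an unselected list. A difference above 1 was called in 16 members (43.2%), against 7.46% of all genes tested, and a difference below -1 in 0 members, against 8.03% of all genes tested. The 5 set 2 values did not overlap the 4 set 1 values, with set 2 higher, in 27 members, against 34.1% of all genes tested. In 2 further members the values did not overlap and set 2 was lower, against 29.5% of all genes tested. All 37 members passed the filter on low values, but Mx2 and Zbp1 passed it through set 2 alone, so a difference in those 2 was built into their passing. Without them, 26 of 35 members were higher and 2 lower, with a median of 0.86. Of the 35, 15 had a called difference above 1, and in 25 the sets did not overlap with set 2 higher. Here and below, such genes are left out of the lists but not out of the shares of all genes tested.

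The members were not alike in this. Counts by role below are to be set against 38.4% higher and 32.3% lower among all genes tested. The largest differences of log2(CPM + 1) were in Ifi44, Ifit1, Oasl2, Usp18 and Rsad2, with ranks 27, 45, 71, 81 and 90 from the highest among the 14058 genes. Irgm1 and Psmb10 were lower in set 2. Adding 1 to CPM makes differences of low genes too small. By ratio of mean CPM, Mx2 (9.62) lay above Ifit1 (9.49), and Zbp1 reached 5.42, but both Mx2 and Zbp1 passed the filter through set 2 alone. The 7 members not called in either direction were Eif2ak2, Irf1, Cmpk2, Samd9l, Parp9, Dtx3l and B2m.

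**Figure D1:**
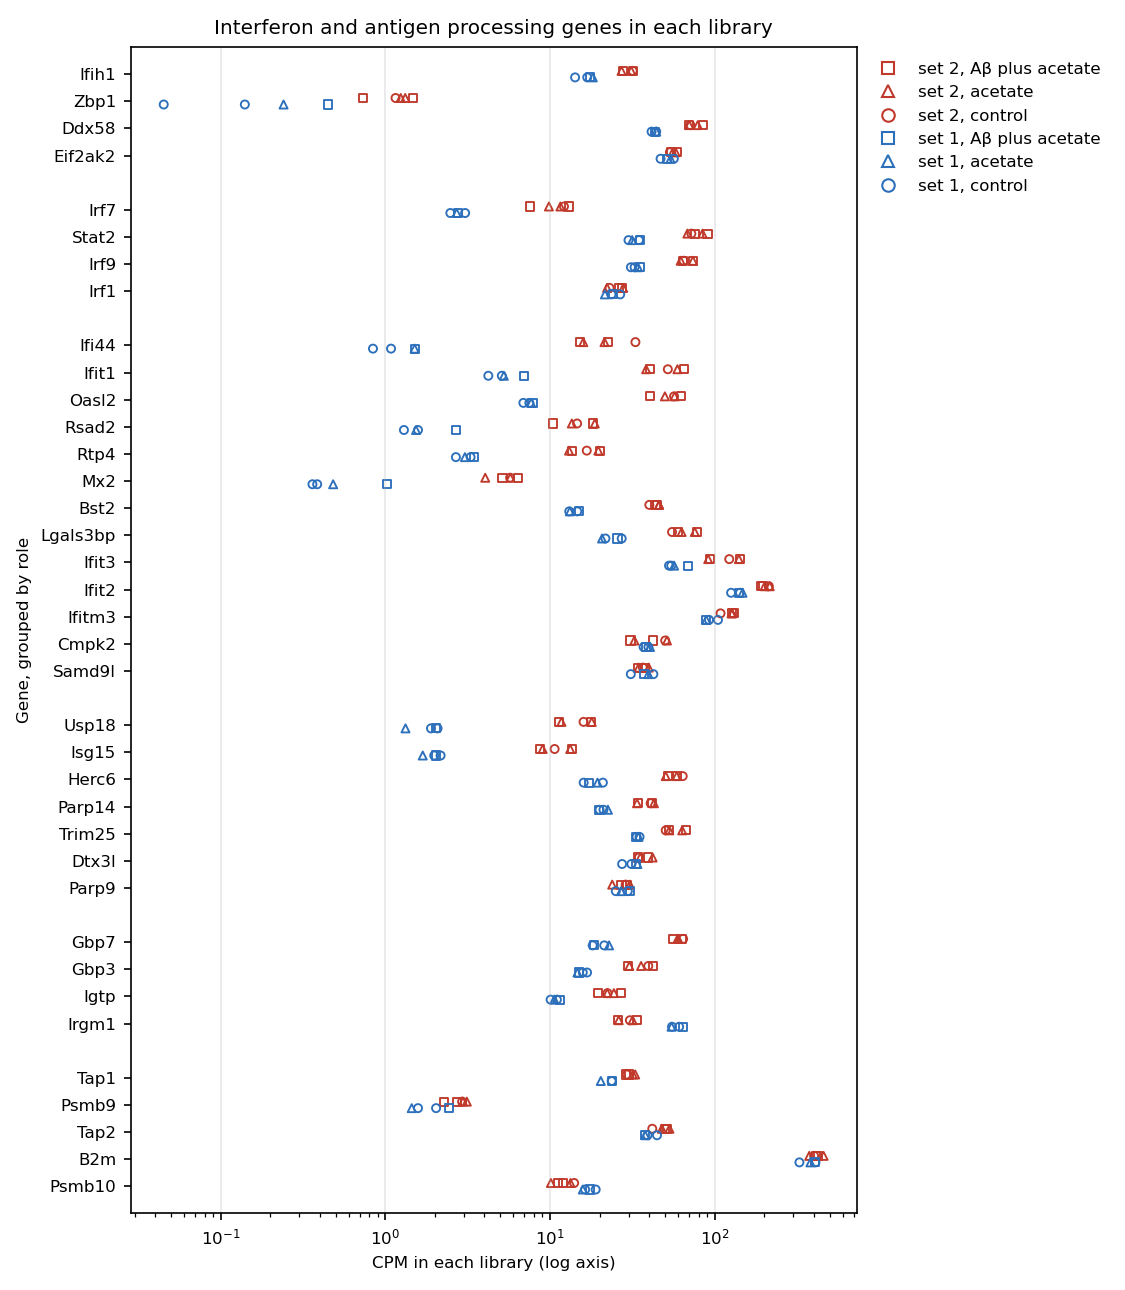
CPM of the 37 genes in each of the 9 libraries, on a log axis, with genes grouped by role; red symbols are set 2, blue symbols set 1, and the shape gives the group (squares Aβ plus acetate, triangles acetate, circles control). In 27 genes every red symbol lies right of every blue one, and in Irgm1 and Psmb10 every red symbol lies left of every blue one.

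Markers of other cells also differed between the sets, and their part in these results was not tested. The 15 microglia and macrophage markers summed to 470 to 737 CPM in set 2 and 185 to 318 CPM in set 1, and of the 13 tested that did not pass the filter through set 2 alone, 12 were higher in set 2 and 1, Tmem119, was lower. Cx3cr1, a receptor that defines microglia in the brain, lay at 4.86 to 31.7 CPM in set 2 and 0.844 to 3.02 CPM in set 1. Fibroblast and meningeal markers summed to 78.3 to 157 CPM in set 2 and 1114 to 1271 CPM in set 1, with 1 of the 8 tested that did not pass through set 1 alone higher and 5 lower. Pericyte and smooth muscle markers summed to 570 to 799 CPM in set 2 and 3095 to 3841 CPM in set 1, with 6 of 6 lower. Markers of the oligodendrocyte lineage summed to 231 to 344 CPM in set 2 and 770 to 1004 CPM in set 1, with 1 of 7 higher and 4 lower. Endothelial markers summed to 40.1 to 55.9 CPM in set 2 and 39.5 to 48.0 CPM in set 1. Neuronal markers summed to 475 to 524 CPM in set 2 and 522 to 635 CPM in set 1. The sums of the sets overlapped in both lists, but single markers were called in both directions. Leaving out markers that passed through 1 set alone, 2 of 3 endothelial markers were higher and 1 lower. Of the neuronal markers so left, 2 of 4 were higher and 1 lower. The 4 measured lymphocyte markers were below 1 CPM in every library. Of the 9 astrocyte markers tested, 6 were higher in set 2 and 3 lower. Of all genes tested, 38.4% were higher and 32.3% lower. No marker of these lists was at 0 in every library. In bulk RNA, fewer cells of a type and less RNA per cell cannot be told apart.

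The interferon-stimulated response element was looked for in the promoters as GAAA, any 2 bases and GAAA again, on either strand, in RefSeq windows from 250 bases before to 50 bases after each start site (GRCm38.p6). Windows were found for 30 of the 37 members. The letters occurred in 15 of these 30 members (50%), against 3.99% of the 27025 genes with a window and 3.44% of all 32851 windows. Among the members with a window they occurred in 12 of 22 higher in set 2, 1 of 2 lower in set 2 and 2 of 6 not called. The letters TTCNNNGAA, a form of the gamma-activated site, occurred in 7 of the 30 members (23.3%) and in 9.55% of all genes with a window; the 2 motifs overlapped each other in 0.0731% of windows. A match is a string of letters and not a measured binding site.

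The stretches around the match are shown for the 5 members with the motif and the smallest p among those given in full, because this element is where the complex that holds STAT2 and IRF9 is known to bind, and then for Irgm1, Eif2ak2 and B2m, which hold the same letters without being higher in set 2 and were picked after their values were seen. All are written 5′ to 3′ on the strand of the gene, and capitals mark the motif (on its other strand it reads TTTC, any 2 bases, TTTC).
Bst2: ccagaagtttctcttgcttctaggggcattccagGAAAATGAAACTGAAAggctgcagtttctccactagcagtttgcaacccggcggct
Gbp7: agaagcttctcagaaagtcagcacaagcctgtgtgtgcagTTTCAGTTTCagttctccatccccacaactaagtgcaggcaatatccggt
Ifit1: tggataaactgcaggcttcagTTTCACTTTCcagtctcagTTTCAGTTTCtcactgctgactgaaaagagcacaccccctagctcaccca
Stat2: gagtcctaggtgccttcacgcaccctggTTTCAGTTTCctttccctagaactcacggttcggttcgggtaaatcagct
Isg15: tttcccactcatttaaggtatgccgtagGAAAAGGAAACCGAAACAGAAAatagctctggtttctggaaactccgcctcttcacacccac
Irgm1: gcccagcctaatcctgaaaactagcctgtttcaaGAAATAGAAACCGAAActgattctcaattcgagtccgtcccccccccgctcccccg
Eif2ak2: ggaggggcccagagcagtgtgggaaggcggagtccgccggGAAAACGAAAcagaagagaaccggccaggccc
B2m: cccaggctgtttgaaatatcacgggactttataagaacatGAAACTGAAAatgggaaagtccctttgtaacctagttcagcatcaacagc
These lie at chr8:71537547-71537636 on the minus strand (Bst2), chr3:142530243-142530332 on the plus strand (Gbp7), chr19:34640764-34640853 on the plus strand (Ifit1), chr10:128270248-128270325 on the plus strand (Stat2), chr4:156200835-156200924 on the minus strand (Isg15), chr11:48871395-48871484 on the minus strand (Irgm1), chr17:78882523-78882594 on the minus strand (Eif2ak2) and chr2:122147508-122147597 on the plus strand (B2m). The first capital lies 130 bases before the start site in Bst2, 53 in Gbp7, 104 in Ifit1, 222 in Stat2, 78 in Isg15, 30 in Irgm1 and 139 in B2m, and 18 bases after it in Eif2ak2. Ifit1 holds a pair of separate matches in this stretch, and in Bst2, Isg15 and Irgm1 adjoining matches overlap.

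Among the sensors of foreign nucleic acid, leaving out Zbp1, which passed the filter through set 2 alone, 2 of 3 were higher in set 2, with a median log2 difference of 0.76. In the values that follow, libraries of set 2 stand in the order Aβ plus acetate 2, Aβ plus acetate 3, acetate 2, acetate 3 and control 3, and those of set 1 in the order Aβ plus acetate 1, acetate 1, control 1 and control 2. Ddx58, which encodes the RNA sensor RIG-I, had 69.7, 85.3, 78.9, 70.1 and 71.2 CPM in set 2, against 43.4, 44.2, 41.4 and 44.1 CPM in set 1 (log2 difference 0.76, SE 0.08, adjusted p = 4.78e-06). Ifih1, which encodes the long double-stranded RNA sensor MDA5, had 27.8, 32.0, 31.1, 27.2 and 31.8 CPM in set 2, against 17.4, 18.2, 14.2 and 16.8 CPM in set 1 (log2 difference 0.79, SE 0.10, adjusted p = 1.7e-05). Both were higher in every set 2 library than in any set 1 library, by ratios of mean CPM of 1.73 for Ddx58 and 1.80 for Ifih1. Zbp1, a sensor of left-handed nucleic acid that can start cell death, was near the limit of measurement, with 0.732, 1.48, 1.32, 1.24 and 1.15 CPM in set 2, against 0.449, 0.241, 0.140 and 0.0451 CPM in set 1 (log2 difference 0.79, SE 0.14). The value of Zbp1 in control 2 equals about 1 read. Eif2ak2, whose product PKR halts translation on double-stranded RNA, had 54.0, 59.0, 57.9, 55.6 and 53.5 CPM in set 2, against 51.5, 54.0, 46.9 and 56.5 CPM in set 1, and the sets overlapped (adjusted p = 0.314).

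Of the transcription factors, Stat2, Irf9 and Irf7 were higher in set 2 and Irf1 was not called; the median log2 difference of the 4 was 1.08. Stat2, the type I interferon signal transducer, had 76.1, 90.4, 84.3, 68.3 and 72.2 CPM in set 2, against 35.1, 31.6, 34.7 and 30.0 CPM in set 1 (log2 difference 1.20, SE 0.09, adjusted p = 3.25e-07). Irf9, its DNA-binding partner, had 64.0, 74.0, 73.7, 62.1 and 64.7 CPM in set 2, against 35.4, 34.2, 32.6 and 31.0 CPM in set 1 (log2 difference 0.97, SE 0.08, adjusted p = 5.35e-07). The sets were clearly apart in both, with no set 2 library near a set 1 library. Irf7, which drives interferon genes and is itself induced, had 7.61, 13.1, 11.6, 9.85 and 12.2 CPM in set 2, against 2.77, 2.71, 3.05 and 2.48 CPM in set 1 (log2 difference 1.67, SE 0.15, adjusted p = 1.63e-06). Irf1, the factor most associated with interferon gamma, had 27.2, 26.3, 27.8, 22.2 and 23 CPM in set 2, against 24.1, 21.6, 26.7 and 23.6 CPM in set 1, with overlapping sets (log2 difference 0.07, SE 0.09, adjusted p = 0.503). Stat2 and the listed gene Apof overlap by 754 bases on the same strand, and how the authors assigned reads in such overlaps is not given in the sources used here.

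The antiviral effectors held the largest differences: 10 of 12 were higher in set 2, with a median of 1.48, leaving out Mx2. Oasl2, a member of the oligoadenylate synthetase family, had 40.6, 62.1, 57.1, 49.9 and 56.7 CPM in set 2, against 7.83, 7.69, 6.89 and 7.49 CPM in set 1 (log2 difference 2.67, SE 0.12, adjusted p = 7.01e-09). Bst2, or tetherin, which holds budding virus at the cell surface, had 43.7, 44.9, 45.9, 46.0 and 40.1 CPM in set 2, against 15.1, 13.2, 14.6 and 13.1 CPM in set 1 (log2 difference 1.56, SE 0.08, adjusted p = 1.17e-08). The libraries within each set were close together in Bst2. Ifit1, whose protein binds viral RNA with an unmethylated cap, had 40.2, 65.5, 59.4, 38.3 and 51.9 CPM in set 2, against 6.97, 5.24, 4.22 and 5.1 CPM in set 1 (log2 difference 2.97, SE 0.17, adjusted p = 4.2e-08). Ifi44, which encodes an interferon-induced antiviral protein, had 15.2, 22.6, 15.9, 21.4 and 33.0 CPM in set 2, against 1.51, 1.51, 0.842 and 1.08 CPM in set 1 (log2 difference 3.35, SE 0.21, adjusted p = 9.81e-08). Its ratio of mean CPM, 17.5, was the highest of the 37 members, and its highest library was control 3.

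The other effectors called higher were Rsad2 (viperin, which makes a chain-terminating nucleotide; log2 difference 2.47, SE 0.19), Rtp4 (2.07, SE 0.15), Lgals3bp (a secreted galectin ligand; 1.40, SE 0.12), Ifit3 (0.97, SE 0.15), Ifit2 (0.54, SE 0.07) and Ifitm3 (which blocks virus entry at endosomes; 0.40, SE 0.08), with adjusted p between 2.42e-07 for Rtp4 and 0.00114 for Ifitm3. Mx2, a dynamin-like GTPase that passed the filter through set 2 alone, had a log2 difference of 2.00 (SE 0.14); it is annotated as a polymorphic pseudogene in the reference strain. Cmpk2, a mitochondrial nucleotide kinase, had 30.8, 42.2, 51.3, 32.5 and 50.1 CPM in set 2, against 38.3, 40.5, 39.6 and 37.0 CPM in set 1 (log2 difference 0.10, SE 0.14, adjusted p = 0.535). Its neighbour on chromosome 12, Rsad2, had 10.4, 18.2, 18.7, 13.6 and 14.6 CPM in set 2, against 2.69, 1.54, 1.30 and 1.58 CPM in set 1. The sets thus overlapped in Cmpk2 and stood apart in Rsad2. Samd9l, a restriction factor, had overlapping sets (log2 difference -0.04, SE 0.10, adjusted p = 0.742).

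The 3 Ifit genes among the members lie near each other on chromosome 19 (mm10: Ifit2 at 34550694 to 34576535, Ifit3 at 34583529 to 34588983, Ifit1 at 34640889 to 34650010), with Ifit1bl1 and Ifit3b between Ifit3 and Ifit1, and had log2 differences of unlike size. Ifit2, whose protein partners Ifit1 and Ifit3 in RNA binding, averaged 204 ± 10.4 CPM in set 2 (SD, n = 5) and 139 ± 9.38 CPM in set 1 (SD, n = 4). Ifit3 averaged 118 ± 24.4 CPM in set 2 (SD, n = 5) and 58.2 ± 7.31 CPM in set 1 (SD, n = 4). Per kilobase of merged exons, the level of Ifit2 was 51.9 CPM per kb in set 2 and 35.5 CPM per kb in set 1, that of Ifit3 was 67.6 CPM per kb in set 2 and 33.4 CPM per kb in set 1, and that of Ifit1 was 19.2 CPM per kb in set 2 and 2.03 CPM per kb in set 1, so the gene with the largest ratio among the 3 was the lowest of the 3 in both sets. Reads of Ifit3 can be shared with its near-identical copy Ifit3b, and how they were divided is not given in the sources used here, so the level of Ifit3 is uncertain.

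Among the genes of ISG15 conjugation and ADP-ribosylation, 5 of 7 were higher in set 2, with a median of 0.86. Isg15, the ubiquitin-like modifier, had 8.70, 13.6, 13.3, 9.03 and 10.7 CPM in set 2, against 2.04, 1.69, 1.98 and 2.17 CPM in set 1 (log2 difference 2.02, SE 0.15, adjusted p = 3.87e-07). Usp18, the protease that removes ISG15 and dampens the type I receptor, had 11.3, 17.8, 17.9, 11.7 and 16.0 CPM in set 2, against 2.04, 1.33, 1.89 and 2.08 CPM in set 1 (log2 difference 2.52, SE 0.16, adjusted p = 1.05e-07). Modifier and protease were thus high in the same libraries, Aβ plus acetate 3 and acetate 2. Herc6, the mouse ligase that attaches ISG15, had 51.8, 59.2, 50.4, 58.8 and 63.9 CPM in set 2, against 17.3, 19.4, 16.0 and 20.9 CPM in set 1 (log2 difference 1.60, SE 0.10, adjusted p = 8.36e-08). Trim25, a ubiquitin ligase that activates RIG-I, had a log2 difference of 0.70 (SE 0.09, adjusted p = 3.68e-05).

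The macrodomain genes split. Parp14, an ADP-ribosyltransferase, had 34.1, 41.5, 42.8, 33.8 and 40.9 CPM in set 2, against 19.7, 22.5, 20.0 and 21.1 CPM in set 1 (log2 difference 0.86, SE 0.09, adjusted p = 8.56e-06). Parp9 had 27.2, 29.2, 30.5, 23.9 and 28.8 CPM in set 2, against 30.6, 27.0, 25.1 and 29.7 CPM in set 1, with overlapping sets (log2 difference -0.01, SE 0.09, adjusted p = 0.906). Dtx3l, the ubiquitin ligase that pairs with PARP9, had 34.0, 39.3, 42.0, 35.3 and 34.7 CPM in set 2, against 33.2, 33.9, 27.4 and 31.2 CPM in set 1 (log2 difference 0.18, SE 0.08, adjusted p = 0.0651). The sets did not overlap in Dtx3l but lay close together. Dtx3l and Parp9 overlap by 559 bases on opposite strands of chromosome 16, and whether reads were counted by strand is not given in the sources used here.

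**Figure D2:**
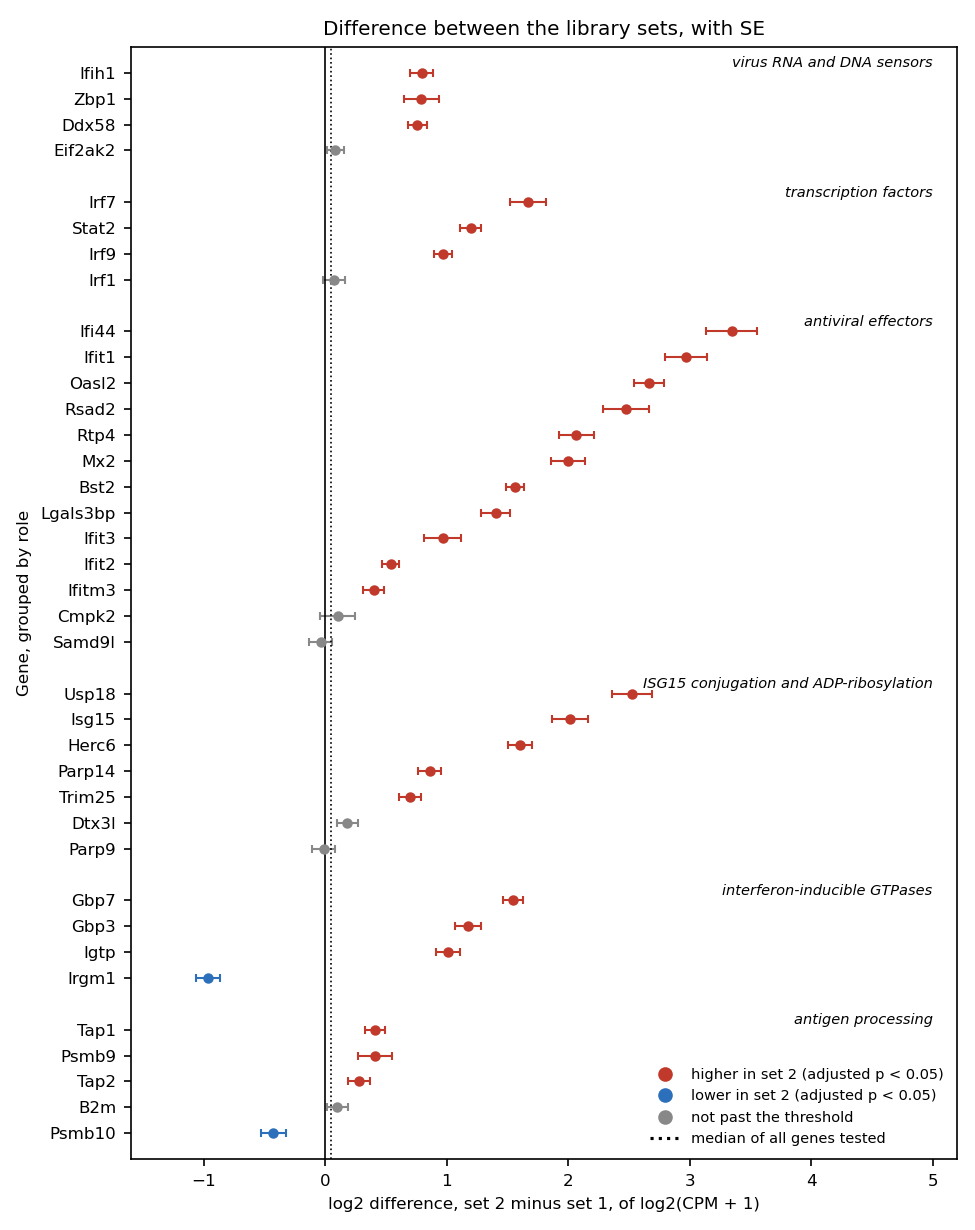
Log2 difference of set 2 minus set 1 for the 37 genes, with its SE, from the fit with the treatment group as a term; the dotted line is the median of all genes tested, 0.050. Colour gives the call: 28 red genes were higher in set 2 (Zbp1 and Mx2 among them passed the filter through set 2 alone), 2 blue genes lower, and 7 grey genes did not pass the threshold.

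The interferon-inducible GTPases were higher in set 2 in 3 cases and lower in 1. Gbp7 had 56.2, 63.1, 60.1, 59.5 and 64.3 CPM in set 2, against 18.5, 22.8, 18.2 and 21.3 CPM in set 1 (log2 difference 1.55, SE 0.08, adjusted p = 2.85e-08). Gbp3 (log2 difference 1.18, SE 0.11, adjusted p = 1.62e-06) and Igtp, also called Irgm3 (1.01, SE 0.10, adjusted p = 3.97e-06), were higher too. Irgm1, a regulator that keeps other members of the immunity-related GTPase family in check, went the other way, with 25.7, 33.9, 31.7, 26.1 and 30.6 CPM in set 2, against 64.3, 54.7, 55.1 and 60.8 CPM in set 1 (log2 difference -0.97, SE 0.10, adjusted p = 4.39e-06). Irgm1 averaged 29.6 ± 3.56 CPM in set 2 (SD, n = 5) and 58.7 ± 4.66 CPM in set 1 (SD, n = 4), and the sets lay far apart. The guanylate-binding proteins are a family of close copies, so reads may be split among them in ways that are not given in the sources used here.

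The antigen-processing genes changed least, with a median log2 difference of 0.28: 3 of 5 were higher in set 2 and 1 was lower. With so few genes, these shares are read as near the background. Tap1 and Tap2, which together form the transporter that carries peptides into the endoplasmic reticulum, were both slightly higher. Tap1 had 29.0, 30.1, 32.9, 31.8 and 29.3 CPM in set 2, against 23.8, 20.3, 23.7 and 23.7 CPM in set 1 (log2 difference 0.41, SE 0.08, adjusted p = 0.000754). Tap2 had 50.1, 51.4, 53.1, 47.8 and 41.8 CPM in set 2, against 37.6, 37.9, 44.6 and 39.1 CPM in set 1 (log2 difference 0.28, SE 0.09, adjusted p = 0.0167). The sets did not overlap in Tap1 but overlapped in Tap2 through control 3 and control 1. The call for Tap2 was lost without acetate 1 (adjusted p = 0.116) or without Aβ plus acetate 1 (adjusted p = 0.134).

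The immunoproteasome subunits moved in opposite directions. Psmb9 had 2.29, 2.72, 3.13, 2.96 and 2.93 CPM in set 2, against 2.45, 1.45, 2.03 and 1.58 CPM in set 1 (log2 difference 0.41, SE 0.14, adjusted p = 0.0197). The sets overlapped in Psmb9, and its call was lost without control 3 (adjusted p = 0.0841) or without acetate 1 (adjusted p = 0.167). Psmb10 had 11.2, 11.9, 13.3, 10.1 and 14.0 CPM in set 2, against 17.5, 15.8, 18.9 and 16.3 CPM in set 1 (log2 difference -0.43, SE 0.10, adjusted p = 0.00281). B2m, the light chain of MHC class I, had 415, 427, 375, 459 and 402 CPM in set 2, against 407, 381, 327 and 409 CPM in set 1, with overlapping sets (log2 difference 0.10, SE 0.09, adjusted p = 0.325). Per kilobase of merged exons B2m had the highest level of the 37 members in both sets, 483 CPM per kb in set 2 and 443 CPM per kb in set 1, followed by Ifitm3 with 183 CPM per kb in set 2 and 138 CPM per kb in set 1.

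The other genes of the pathway were taken from lists of 138 symbols, of which 130 were measured and 117 passed the filter. Of these 117, 75 were higher in set 2, 17 were lower and 25 were not called, with a median log2 difference of 0.56. Of the 117, 25 passed the filter through set 2 alone and 1 through set 1 alone. Of the remaining 91, 51 were higher and 16 lower, with a median of 0.36. Of all genes tested, those that passed through 1 set alone included, 38.4% were higher and 32.3% lower. The 8 listed interferon genes themselves, Ifnb1 among them, were not analysed here. Of the 8 receptor chains and kinases tested, 4 were higher and 1 was lower, and with so few genes these shares are read as near the background. Jak2, a kinase of the interferon gamma receptor, averaged 150.1 ± 10.3 CPM in set 2 (SD, n = 5) and 87.0 ± 10.7 CPM in set 1 (SD, n = 4) (log2 difference 0.77, SE 0.09, adjusted p = 1.12e-05). The gamma receptor chains went in opposite directions, with Ifngr1 at 86.0 ± 2.92 CPM in set 2 and 61.3 ± 2.03 CPM in set 1, and Ifngr2 at 55.3 ± 3.88 CPM in set 2 and 68.2 ± 5.35 CPM in set 1 (SD, n = 5 and 4; both called). The type I receptor chains differed little: Ifnar1 had a log2 difference of 0.25 (adjusted p = 0.00298) and Ifnar2 of -0.10 (adjusted p = 0.194).

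Among signalling factors and inhibitors, 6 of 12 were higher and 2 lower, also read as near the background. Ptpn2, a phosphatase that dampens interferon receptor signalling, averaged 49.9 ± 6.89 CPM in set 2 (SD, n = 5) and 26.7 ± 1.29 CPM in set 1 (SD, n = 4) (log2 difference 0.91, adjusted p = 7.84e-06). Of 15 further sensors and adaptors that did not pass through set 2 alone, 8 were higher and 1 lower. The shares of all genes tested were 38.4% higher and 32.3% lower. Ticam1, the adaptor of the double-stranded RNA receptor TLR3, averaged 43.3 ± 1.91 CPM in set 2 and 20.9 ± 2.48 CPM in set 1 (log2 difference 1.03), Tlr3 itself 104 ± 5.13 CPM in set 2 and 55.1 ± 7.30 CPM in set 1 (log2 difference 0.89), and Adar, the RNA-editing enzyme, 117 ± 4.34 CPM in set 2 and 71.6 ± 5.54 CPM in set 1 (SD, n = 5 and 4; all called).

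Of 42 further interferon-stimulated genes, 17 passed the filter through set 2 alone and 1, Ifitm1, through set 1 alone. Of the remaining 24, 16 were higher in set 2 and 3 lower, with a median of 0.57, against 38.4% higher and 32.3% lower of all genes tested. The 3 lower ones, named like Ifitm1 after their values were seen, were Ifitm2, Pml and Ifi47. Cxcl10, a chemokine that draws T cells, averaged 76.2 ± 8.5 CPM in set 2 (SD, n = 5) and 5.26 ± 2.58 CPM in set 1 (SD, n = 4) (log2 difference 3.64, SE 0.15, adjusted p = 2.47e-09). Cxcl10 and the listed gene Art3 overlap by 2252 bases on opposite strands. Whether reads were counted by strand is not given in the sources used here. Ifi204, a DNA sensor of the p200 family, averaged 27.9 ± 2.58 CPM in set 2 and 3.09 ± 0.544 CPM in set 1 (log2 difference 2.87, adjusted p = 1.5e-09). Of 11 further GTPases tested, 6 passed through set 2 alone, and the remaining 5 were each higher, with a median of 2.04. Gbp6 averaged 105 ± 9.43 CPM in set 2 and 12.4 ± 1.33 CPM in set 1 (log2 difference 2.96, adjusted p = 4.15e-10), and Gbp5 averaged 26.4 ± 5.02 CPM in set 2 and 1.75 ± 0.623 CPM in set 1 (log2 difference 3.30, adjusted p = 2.51e-08).

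Of 17 further antigen-processing genes that did not pass through set 2 alone, 12 were higher in set 2 and 4 lower. Of 10 constitutive proteasome subunits, 0 were higher and 5 lower. The shares of all genes tested were 38.4% higher and 32.3% lower. Psmb8, the remaining catalytic immunoproteasome subunit, averaged 8.03 ± 0.308 CPM in set 2 (SD, n = 5) and 5.77 ± 0.224 CPM in set 1 (SD, n = 4) (log2 difference 0.42, SE 0.09, adjusted p = 0.0016). Psmb7, the constitutive subunit that Psmb10 replaces, averaged 55.4 ± 2.07 CPM in set 2 and 77.7 ± 2.94 CPM in set 1 (log2 difference -0.48, adjusted p = 3.89e-05). As a ratio of CPM within each library, not corrected for length, Psmb10 was 21.9% ± 3.02 of Psmb7 in set 2 and 22% ± 1.16 in set 1. Psmb9 was 4.38% ± 0.389 of its counterpart Psmb6 in set 2 and 2.98% ± 0.609 in set 1, and Psmb8 was 19.2% ± 0.930 of Psmb5 in set 2 and 14.0% ± 0.950 in set 1 (SD, n = 5 and 4). The class I heavy chain gene H2-D1 averaged 160.1 ± 7.40 CPM in set 2 and 108 ± 12.3 CPM in set 1 (log2 difference 0.57, adjusted p = 4.17e-05). The largest differences of the list were in Calr (1.84) and Pdia3 (1.5), which load MHC class I but are also general chaperones of the endoplasmic reticulum. The genes of MHC class II (Cd74, H2-Aa, H2-Ab1 and H2-Eb1) and their activator Ciita did not pass the filter: the highest value among them was 0.788 CPM in set 2 and 1.55 CPM in set 1.

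**Figure D3:**
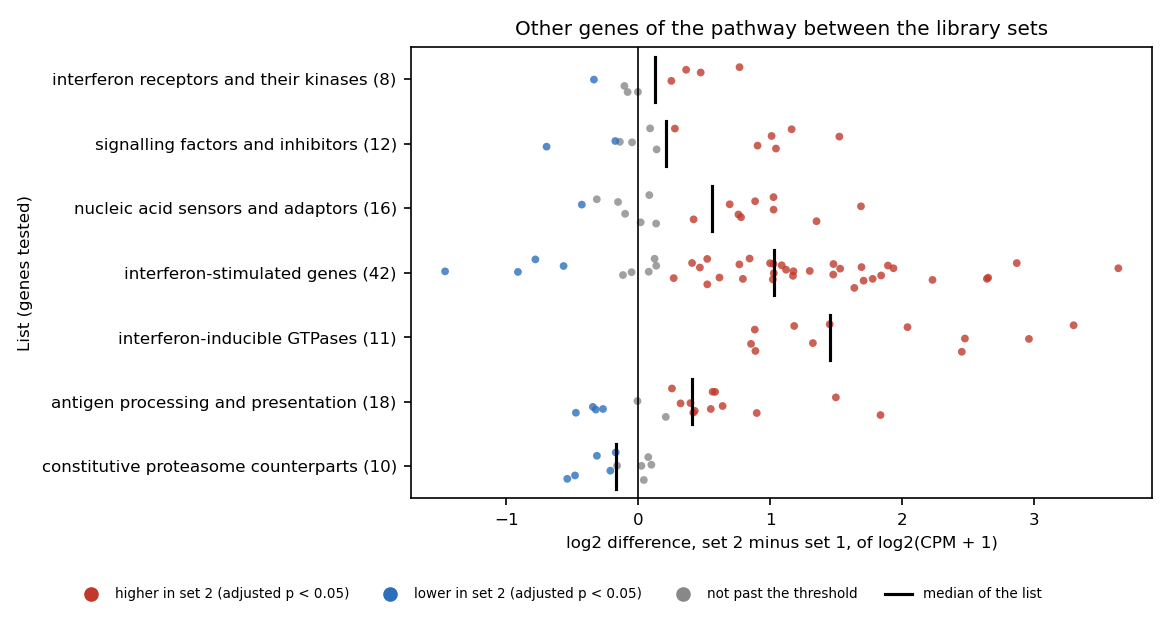
Log2 difference of set 2 minus set 1 for 117 other genes of the pathway, 1 point a gene, in 7 lists; black bars are list medians and colour gives the call. The GTPases, of which 6 of 11 passed the filter through set 2 alone, have the highest list median (1.45), and the constitutive proteasome subunits, 5 of 10 lower, the lowest (-0.16). Of all genes tested, 38.4% were higher and 32.3% lower.

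Acetate, and Aβ on top of acetate, were then compared with the library set as a term of the fit, since the sets hold unequal numbers of each group. None of the 37 members was called in any of the 3 comparisons (limma, adjusted p under 0.05), nor was any of the 14058 genes (0%). At an unadjusted p under 0.05 there were 0 members in each comparison. The share of all genes at that level was 3.22% where acetate was set against control, 3.1% where the Aβ plus acetate group was set against acetate, and 3.59% where it was set against control. The members' median log2 differences were 0.02, 0.03 and 0.04 in the same order. Their 95% intervals reached a median of 0.26, 0.25 and 0.26 to either side of the estimate, and for all 37 members in all 3 comparisons they stayed within a log2 difference of 1 either way. They stayed within 0.5 either way for 32, 31 and 28 members in that order. These intervals are of log2(CPM + 1), so for low members they do not bound the ratio of CPM. Zbp1, for example, lay at 0.0451 to 0.449 CPM in set 1. The last 2 comparisons share the Aβ plus acetate libraries and the first and last share the controls.

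In acetate against control, the members with the smallest p were Dtx3l (log2 difference 0.19, SE 0.10), Gbp3 (-0.20, SE 0.13) and Psmb10 (-0.18, SE 0.12), with an adjusted p of 1.00 for each. Dtx3l had 42.0 and 35.3 CPM in acetate libraries of set 2, against 34.7 CPM in the control of set 2, and 33.9 CPM in the acetate library of set 1, against 27.4 and 31.2 CPM in controls of set 1. The direction was the same in both sets, with differences near the spread between libraries. In Aβ plus acetate against acetate, Mx2 had the smallest p (log2 difference 0.29, SE 0.16, adjusted p = 1.00), followed by Stat2 (0.13, SE 0.10) and Irf1 (0.12, SE 0.11). Mx2 had 5.15 and 6.38 CPM in Aβ plus acetate libraries of set 2, against 5.74 and 4.04 CPM in acetate libraries of set 2, and 1.02 CPM in the Aβ plus acetate library of set 1, against 0.482 CPM in the acetate library of set 1. Values of the 2 groups overlapped in set 2. Mx2 also had the smallest p in Aβ plus acetate against control (log2 difference 0.28, SE 0.17, adjusted p = 0.999), followed by Stat2 (0.15, SE 0.11) and Irf9 (0.12, SE 0.09).

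Without the set term, the members' medians moved to 0.32 in acetate against control and 0.33 in Aβ plus acetate against control, with 0 members called; 2 of 3 libraries of each treated group but 1 of 3 controls are in set 2. Within set 2 alone the medians were 0.02, -0.003 and -0.02 in the order of comparisons above, and within set 1 alone 0.05, 0.09 and 0.08. Set 1 holds 1 library of each treated group, and these medians are given without a test.

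**Figure D4:**
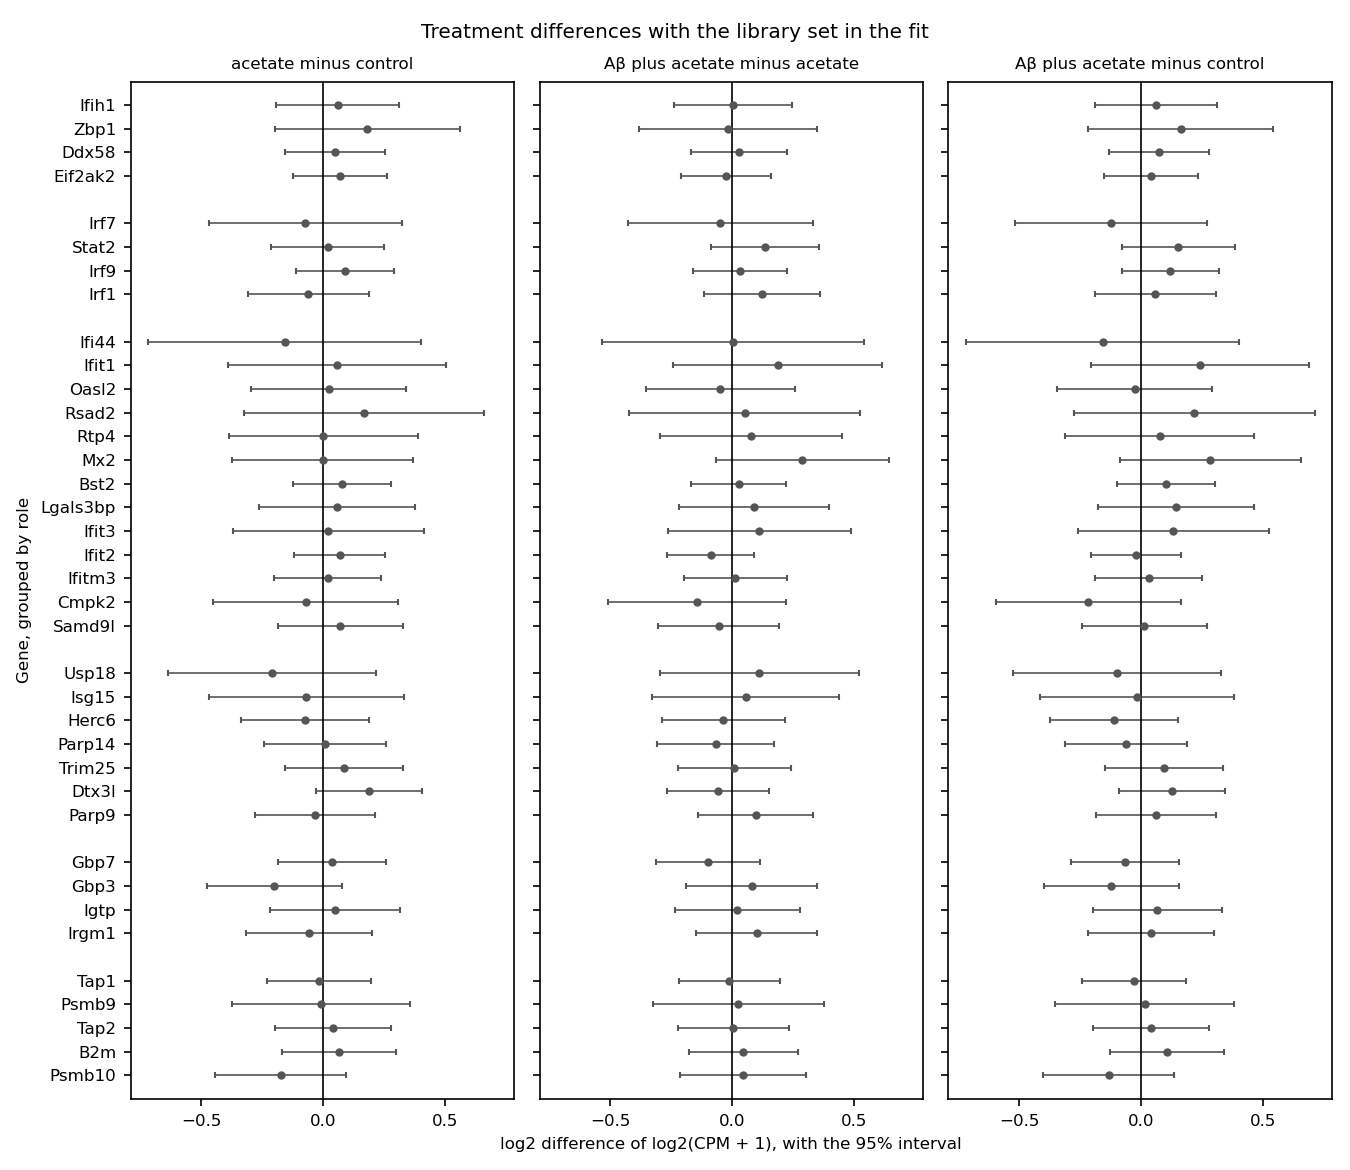
Log2 differences with 95% intervals for the 37 genes in acetate minus control, Aβ plus acetate minus acetate, and Aβ plus acetate minus control, from the fit with the library set as a term. All intervals cross 0 and none reaches 1 either way on the scale of log2(CPM + 1), which makes differences of low genes too small.

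Whether a treatment effect itself differed between the sets was tested as the effect in set 2 minus the effect in set 1. By limma, 0 members and 0 genes (0%) passed adjusted p under 0.05 in each of the 3 tests. At an unadjusted p under 0.05 there was 1 member where acetate was set against control (7.23% of all genes), 1 where the Aβ plus acetate group was set against acetate (3.68%) and 2 where it was set against control (4.92%). Ifi44 was the member with the smallest p for acetate against control (difference of log2 differences -1.16, SE 0.36, adjusted p = 0.459) and for Aβ plus acetate against control (-1.16, SE 0.36, adjusted p = 0.985). Its values were 15.2 and 22.6 CPM in Aβ plus acetate and 15.9 and 21.4 CPM in acetate, against 33.0 CPM in the control of set 2, and 1.51 CPM in Aβ plus acetate and 1.51 CPM in acetate, against 0.842 and 1.08 CPM in controls of set 1. Treated libraries thus lay below the single control in set 2 and above both controls in set 1. The other members at an unadjusted p under 0.05 were Ifitm3 for Aβ plus acetate against control (0.40, SE 0.17, adjusted p = 0.988) and Psmb9 for Aβ plus acetate against acetate (-0.70, SE 0.28, adjusted p = 1.00).

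Within set 2, replicates of the same treatment differed across the whole group of genes. Aβ plus acetate 3 lay above Aβ plus acetate 2 in 35 of the 37 members, with a median log2 difference of 0.26, whereas this was so in 50% of all genes tested. The differences ranged from -0.05 for Irf1 to 0.74 for Rsad2. Acetate 3 lay below acetate 2 in 32 of the 37 members, with a median of -0.23, against 54.6% of all genes tested, and its differences ranged from -0.64 for Cmpk2 to 0.41 for Ifi44. With 1 library on each side, neither difference has a test. Among the 5 libraries of set 2, Aβ plus acetate 3 was the highest in 19 members and acetate 2 in 11, while Aβ plus acetate 2 was the lowest in 17 and acetate 3 in 11. In set 1, Aβ plus acetate 1 was the highest in 16 members and control 1 the lowest in 16. For these counts of highest and lowest libraries, shares over all genes tested are not given here. The counts are therefore a description and not read as particular to the members.

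The summed microglia and macrophage markers were 470 CPM in Aβ plus acetate 2, 570 CPM in Aβ plus acetate 3, 737 CPM in acetate 2, 710 CPM in acetate 3 and 616 CPM in control 3. Aβ plus acetate 3, the highest library of set 2 in 19 members, was below control 3 and both acetate libraries in these markers. Within each treated pair of set 2, the library that was higher in most members had the higher sum. In set 1 the sums were 273 CPM in Aβ plus acetate 1, 185 CPM in acetate 1, 318 CPM in control 1 and 300.4 CPM in control 2. Aβ plus acetate 1, the highest library of set 1 in 16 members, was below both controls in these markers. Control 1, the lowest in 16 members, had the highest sum. These orders rest on single libraries, and the part of such cells in the levels of the members was not tested.

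**Figure D5:**
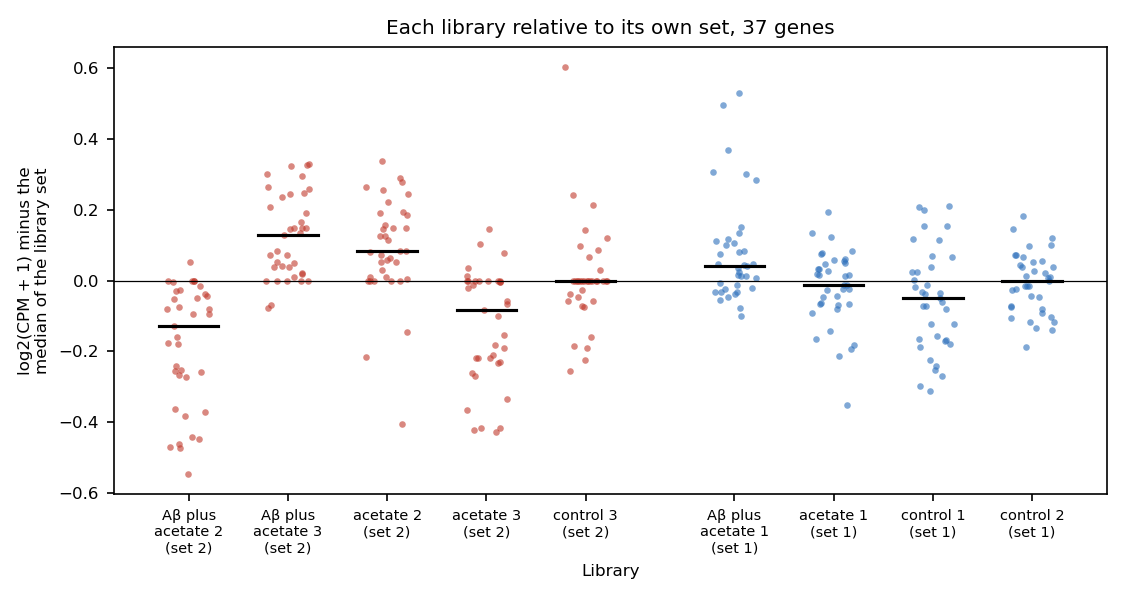
Each point is 1 of the 37 genes in 1 library, as its log2(CPM + 1) minus the median of that gene over the libraries of the same set; black bars are the medians over the 37 genes. Aβ plus acetate 3 (median 0.13) and acetate 2 (0.08) lie above the rest of set 2, and Aβ plus acetate 2 (-0.13) and acetate 3 (-0.08) below.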

How the data were processed

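Poly(A) RNA was sequenced as paired reads of 100 bases in 9 libraries. Values were the authors' deposited CPM per gene, normalised by the authors to the library total; Partek, FastQC and STAR 2.7.3a are listed in the submitters' processing notes, with the builds mm10 and GRCm39 and no roles. Positions fit mm10: 99.8% of 17644 symbols overlapped their gene in GENCODE M21. Read counts could not be recovered exactly: of values of up to 20 implied reads, 93.5% to 94.5% per library were whole within 0.1, so no count model was run and depths are estimates.

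CPM were tested with limma 3.58.1 (R 4.3.3, statmod 1.5.0; trended, robust prior) as log2(CPM + 1) over the 14058 genes that reached 1 CPM in 3 or more of the 9 libraries, with group and library set as terms. The pseudocount of 1 makes differences of low genes too small. P-values were two-sided and Benjamini-Hochberg adjusted over all genes tested, with a threshold of 0.05. The scripts were tested on simulated data. Python 3.11.15 and pandas 2.3.3 were used for the rest.

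Members and lists were chosen with earlier results of these data known. Named in full were the 4 members of each role with the smallest p between sets, the 3 with the smallest p in each treatment comparison and each test of a difference between sets, and up to 3 of each other list, plus Psmb8, Ifnb1, Ifnar1 and Ifnar2; 1 further gene that the rule names is not reported here. Same-numbered libraries were checked for pairing. Numbers in the library names, which are nested in the sets, gave correlations of deviations over 0.1 in 7 of 7 pairs (0.761 to 0.947). Once the set was removed, 0 of 7 did so. Numbers in the titles did so in 7 of 9 pairs, and in 1 of 9 once the set was removed (-0.408 to 0.268). Removing group and set pushes correlations within a set below 0, so the check cannot show whether samples are paired. Alternatives were other pseudocounts, filters, scalings, weights, terms and blocks, and leaving out each library.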

Additional observations from a re-analysis of the deposited data

Results flagged for a closer look

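Of 74 checks of the lowest and highest library of each member within each set, 2 found a library far from the rest; chance alone gives about 1 in 20. Ifitm3 in control 3 was 108.5 CPM, against 127 to 132 CPM in the treated libraries of set 2, a gap of 0.780 of the range. Tap1 in acetate 1 was 20.3 CPM, against 23.7 to 23.8 CPM in the other libraries of set 1, a gap of 0.964 of the range.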

How the results depend on the processing

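In the comparison of the sets, 28 of 37 members kept their call in each of 19 alternatives in which they were tested. Of 9 that changed, 3 (Psmb9, Tap2, Dtx3l) did so outside the replicate block. No member called in the main fit or the alternative reversed direction. Direction was not checked for members called in neither. Leaving out each library in turn gave 26 to 29 members higher and 2 lower, and 4710 to 5555 genes higher and 3872 to 4610 lower. Adding a replicate block by title number, which may or may not pair the samples, gave 21 members higher and 1 lower, in place of 28 and 2. The same block gave 2528 genes higher and 2218 lower, in place of 5394 and 4535. The members lost under it were Zbp1, Ifit2, Ifit3, Ifitm3, Psmb9, Psmb10, Tap1 and Tap2. Dtx3l was called higher with no treatment term (0.23) and without acetate 3 (0.22) or Aβ plus acetate 2 (0.22). The members' median was 0.98 at a pseudocount of 0.1 and 0.76 at 5. In the treatment comparisons 0 members and 0 genes were called under any of 20 alternatives, and a replicate block by library-name number in place of the set gave members' medians of -0.01, 0.03 and 0.02. The members' median for Aβ plus acetate against acetate, 0.03, was -0.003 with median-of-ratios scaling and -0.01 with quantile normalisation. For differences between sets in a treatment effect, alternatives added after seeing the data gave 0 members; array quality weights gave 2 genes higher for acetate against control and 4 genes lower for Aβ plus acetate against acetate, and leaving out each library gave 0 to 1 and 0 to 3 of these. Depth limits Zbp1 and Mx2, which lay at 0.0451 to 1.02 CPM in set 1; the causes of these shifts were not tested.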
